A study of Mus musculus with 10 samples.

Results

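Notch pathway transcripts were examined in RNA pulled down with the RNA-binding protein MEX3A from cultures of adult mouse neural stem cells (NSCs). The genes were the receptors Notch1, Notch2 and Notch3, the ligands Dll1 and Jag1, the DNA-binding partner Rbpj, and the target genes Hes1, Hes5, Hey1 and Heyl. They were taken by symbol from the deposited matrix, in which 8 of these 10 genes were found among 15899 genes. Hes5 and Heyl were not analysed here. Of the 8, Notch1, Hes1 and Rbpj had the smallest p-values for the MEX3A pull-down against the control. Their log2 fold changes were 0.35 ± 0.10, 1.11 ± 0.37 and -0.22 ± 0.09 (SE, limma over 5 against 5 libraries). None of the 8 passed the adjusted threshold, and 3 of the 8 had an unadjusted p under 0.05, against 21.1% of all genes.

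In the Notch pathway, a ligand on one cell (Delta-like or Jagged) binds a receptor on its neighbour, the receptor is cut by ADAM and gamma-secretase proteases, and its intracellular part enters the nucleus. There it joins RBPJ and Mastermind-like proteins and switches on transcriptional repressors of the Hes and Hey families. In the subependymal zone (SEZ) of the lateral ventricles, a neurogenic niche of the adult brain, Notch signalling is known for keeping NSCs undifferentiated.

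The study asked which RNAs MEX3A binds. Libraries called FLAG came from Mex3aFLAG/FLAG cultures, homozygous for a knock-in that places a FLAG tag at the C terminus of the endogenous MEX3A. Libraries called WT came from Mex3a+/+ cultures of the same background, which have no tag, so that whatever the anti-FLAG antibody brought down there was nonspecific. All were neurosphere cultures from the SEZ of mice aged 10 weeks, kept in EGF and FGF, with no other treatment. The immunoprecipitation (IP) was made after formaldehyde crosslinking (2 FLAG and 2 WT libraries) or in native conditions without it (3 FLAG and 3 WT libraries). Libraries of the input RNA were not analysed here, so a difference in the pull-down and a difference in the level of the transcript in the cells cannot be told apart. The replicates are biological ones by the study's methods, but whether same-numbered libraries of both protocols came from 1 culture is not stated, and they were treated as independent in the fits except where a block is named.

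Matches to the MEX-3 recognition element (MRE), the bipartite sequence that MEX-3 proteins recognise, were looked for in the 3′ UTR of each transcript. The element has a short first part that ends in AG and a short second part that begins with T and ends in TA, with up to 8 bases of any kind between them. It was searched on the transcript strand alone. The Hes1 sites are shown because its 3′ UTR held the densest matches, those of Notch1 and Rbpj because their FLAG and WT libraries were apart with both protocols, in opposite directions, and that of Notch3 because it was the only one there. The strings were read from the GRCm38 genome, 5′ to 3′ on the transcript strand, with both parts of the element in capitals and up to 5 bases on each side. The Hes1 sites lie on the plus strand, at chr16:30067502-30067527, chr16:30067759-30067780 and chr16:30067776-30067796.
Hes1, 79 nt after the stop codon: ggattTTAGgagagactTTTAtaatt
Hes1, 336 nt after the stop codon: ttattTGAGaaaaTATAataaa
Hes1, 353 nt after the stop codon: ataaaAGAGtgaaggctTTTA
The Notch1 sites lie on the minus strand, at chr2:26459426-26459446, chr2:26459367-26459386, chr2:26458972-26458996, chr2:26458880-26458897, chr2:26458826-26458848 and chr2:26458032-26458049.
Notch1, 90 nt after the stop codon: ccaaaGGAGcctTTTAaaaaa
Notch1, 150 nt after the stop codon: tttttTTAGtaTTTAtttat
Notch1, 540 nt after the stop codon: atggaTTAGttttgtaTCTAaaaca
Notch1, 639 nt after the stop codon: tgtgcAGAGTCTActacc
Notch1, 688 nt after the stop codon: gttctGTAGtagtgTTTAtgggc
Notch1, 1487 nt after the stop codon: aaagtGTAGTTTAcaaaa
The Rbpj sites lie on the plus strand, at chr5:53654066-53654090, chr5:53654401-53654424, chr5:53654874-53654898, chr5:53655780-53655802, chr5:53656993-53657014 and chr5:53657238-53657259.
Rbpj, 451 nt after the stop codon: cccttTGAGggttggcTCTAaagta
Rbpj, 786 nt after the stop codon: tatttATAGtggtaaTCTAagaga
Rbpj, 1259 nt after the stop codon: gactgATAGttgtaagTTTAtaaaa
Rbpj, 2165 nt after the stop codon: acagaTGAGatgctTTTAaagaa
Rbpj, 3378 nt after the stop codon: atattTTAGtgttTCTActtaa
Rbpj, 3623 nt after the stop codon: aaaatTGAGcaagTTTAtacca
The Notch3 site lies on the minus strand at chr17:32120938-32120962.
Notch3, 863 nt after the stop codon: gcctaATAGaaatgttTTTAggctg

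All 8 transcripts held at least 1 match in their longest annotated 3′ UTR, against 77.2% of the 12113 genes of the matrix with such a 3′ UTR. Hes1 had 5 matches in 368 nt, of which 3 did not overlap, since the first string above holds 3 matches that end at the same bases. Among 979 genes with a 3′ UTR of like length (0.8 to 1.25 times), 1.33% had as many matches and 5.82% had as many that did not overlap. The last Hes1 match ends at the annotated end of the transcript. Thus the Hes1 3′ UTR stood near the top of its length class by the count of all matches whose second part ends in TA.

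The ligand Jag1 had 8 matches in 1568 nt, a number that 13.1% of genes of like length reached. Notch1 had 7 matches in 1628 nt, which 22.4% of such genes reached. Of these, 6 did not overlap, as many as 24.06% of such genes had, since the string at 688 nt above also holds the match that starts at 691 nt. Notch2 had 7 in 2917 nt, Rbpj 6 in 3742 nt, Hey1 3 in 1137 nt and Dll1 2 in 676 nt, and from 43.8% to 84.8% of genes of like length had as many. Notch3 had 1 match in 1000 nt. Per kb, the 8 transcripts together held 2.99 matches, against 2.80 over all genes. With the other form of the second part, which ends in AT, the order was the opposite, with 2.45 matches per kb in the 8 against 2.61 over all genes. Of the 8, 7 held a match of this form, against 76.8% of all genes, and Dll1 held none, while Hes1 had 3 and Notch3 had 5. As many were reached by 7.66% of genes of like length for Hes1 and by 13.65% for Notch3. A match to these letters is a description of the sequence and not a measured binding site.

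**Figure D1:**
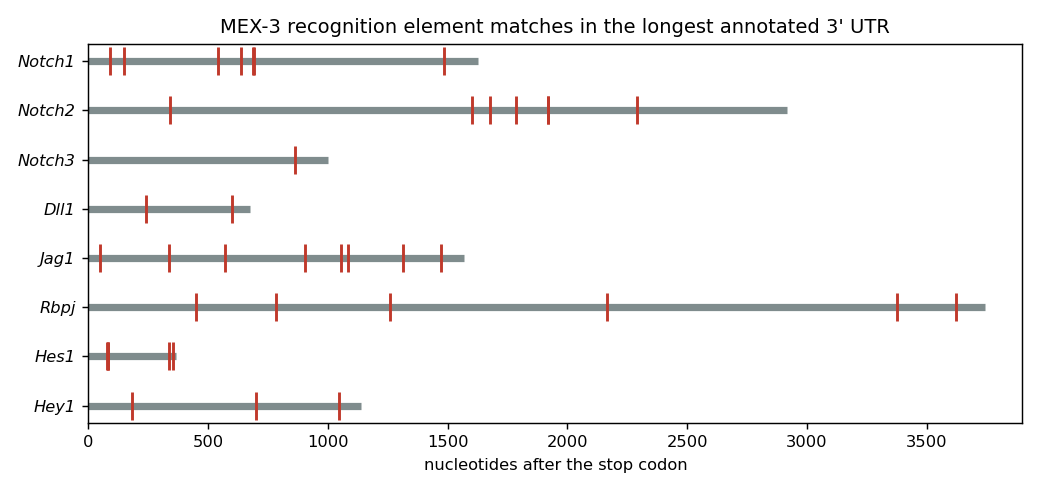
Positions of MRE matches (red ticks) along the longest annotated 3′ UTR of each transcript (grey bars, in nucleotides after the stop codon, to scale). The 5 matches of Hes1 lie within 368 nt, while the 6 of Rbpj are spread over 3742 nt.

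The deposited values are log2 values, already normalized, whose distribution was almost the same in each library, so they hold no read depth and counting errors are unknown. FLAG native replicates 1 and 3 had 329 and 178 genes tied at their lowest value, against at most 3 in the other libraries. Libraries did not always lie closest to their own group: for 5 of the 10, the library of the same protocol with the highest Spearman correlation over all genes was of the other genotype. FLAG native replicate 2 was closest to WT native replicate 1 (0.968), and correlated less with FLAG native replicates 1 and 3 (0.911 and 0.928). Mex3a itself, the tagged gene, was at 3.92 and 4.16 in the FLAG crosslinked libraries against 2.75 and 3.03 in WT, and at 5.95, 4.03 and 6.10 in the FLAG native libraries against 3.33, 3.52 and 2.89 in WT. Each FLAG library was thus above each WT library of its protocol, although the difference over all libraries (1.73 ± 0.37, limma, adjusted p = 0.0789) did not pass the threshold. Of 10 NSC and progenitor markers, 9 were measured (Nes, Sox2, Fabp7, Slc1a3, Vim, Egfr, Msi1, Pax6 and Prom1), with a summed linear level of 2033 to 2816 in FLAG and of 2002 to 2769 in WT. Their median log2 fold change over all libraries was 0.31 and none was called, but the members lay on both sides of 0, from Vim (1.01, limma, unadjusted p = 0.00442) and Sox2 (0.98, unadjusted p = 0.00137) to Slc1a3 (-0.44, unadjusted p = 0.017). The 5 measured markers of neuroblasts and neurons summed to 48.7 to 68.2 in FLAG and 53.3 to 103.0 in WT, and the 2 of oligodendrocytes to 24.9 to 44.5 and 22.8 to 29.8. The 5 of endothelial and mural cells summed to 16.9 to 29.7 and 12.7 to 17.2, and the 2 of ependymal and choroid plexus cells (Foxj1 and Kcnj13) to 6.7 to 14.1 and 8.4 to 16.9. Sums and medians differed in direction for the endothelial and mural list, whose median log2 fold change over all libraries was -0.58, since Flt1 alone of its 5 genes was above 0 and was called (2.23, limma, adjusted p = 0.0468). The median of the neuronal list was -0.64, with Rbfox3 called lower in FLAG (-1.31, limma, adjusted p = 0.0127) and Gad1 on the other side of 0 (0.65, unadjusted p = 0.00292, adjusted p = 0.105). Their part in the Notch values was not tested.

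The receptors and Rbpj had the higher median levels in the WT pull-downs, which hold nonspecific RNA and do not measure abundance in the cells. To set genes side by side, levels were taken per kb of the longest transcript, as the deposited log2 value minus log2 of its length in kb, over the 5 WT libraries. On this scale, Notch1 had a median level of 3.62 (3.42 to 3.73), Notch2 of 3.53 (3.21 to 3.56) and Rbpj of 3.42 (3.32 to 3.55), and the ranges of these neighbours overlapped. Notch3 came next with a median level of 2.21 (2.09 to 2.41), apart from Rbpj above it and from Hes1 below it. Hes1 was at 1.86 (-0.20 to 1.95), Dll1 at 1.77 (0.94 to 2.59), Jag1 at 0.91 (0.33 to 1.27) and Hey1 at 0.49 (-0.48 to 1.49), and these 4 overlapped with one another from each to the next. The range of Dll1 also spanned that of Notch3, so the order holds for the medians alone. Hes1, Dll1, Jag1 and Hey1 had wider ranges in the control libraries than the receptors did.

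A gene was called when its adjusted p was under 0.05 (limma, Benjamini-Hochberg over all 15899 genes) and its log2 fold change was above 0.58 or below -0.58. These are the thresholds of the study, but its test was another one, DESeq2, and it reported genes enriched with both protocols. Here no gene was called higher in FLAG with either protocol alone. The lack of a call therefore does not show what the study's test gave for a Notch transcript. None of the 8 Notch transcripts was called in the crosslinked libraries, where 0% of all genes were, in the native libraries (0.107% of all genes, all of them lower in FLAG), or over all 10 libraries in a fit that also held the protocol (0.497% of all genes). At an unadjusted limma p under 0.05, there were 2 of the 8 in the crosslinked libraries (7.7% of all genes), 2 in the native libraries (16.7%) and 3 over all libraries (21.1%). As many as 4 of the 8 log2 fold changes over all libraries were above 0, with a median of 0.12, against 46.8% of all genes and a median of -0.03. With crosslinking alone, the FLAG libraries were all above the WT libraries for Notch1 and Hes1 (19.1% of all genes) and all below for Notch3 and Rbpj (19.9%). In native conditions they were all above for Notch1 (8.62%) and all below for Rbpj (10.8%). Notch1 was thus the only one of the 8 whose FLAG libraries were all above the WT libraries with both protocols, as for 4.84% of all genes, and Rbpj the only one whose FLAG libraries were all below, as for 4.47%.

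**Figure D2:**
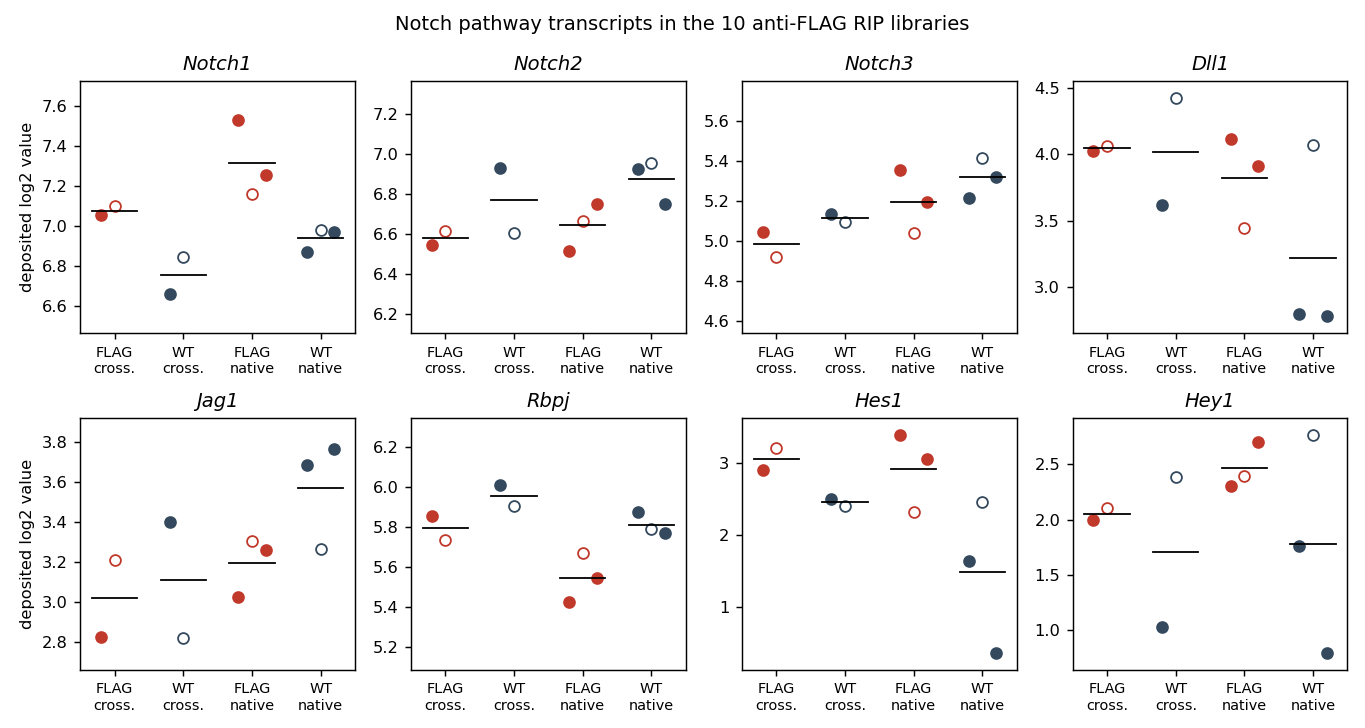
Deposited log2 value of each transcript (y axis, scaled per panel) in each library, by group (x axis). Red circles are FLAG and dark circles WT libraries, open circles are replicates numbered 2, and lines are group means. All FLAG values are above WT for Notch1 and below WT for Rbpj within each protocol, whereas Dll1 and Hey1 have overlapping groups.

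Notch1, a receptor found on NSCs and their progeny, was at 7.05 and 7.10 in the FLAG crosslinked libraries and at 6.66 and 6.84 in the WT crosslinked libraries. In native conditions it was at 7.53, 7.16 and 7.26 in FLAG and at 6.87, 6.98 and 6.97 in WT. The groups did not overlap with either protocol, and the lowest FLAG native library was above the highest WT native library by less than the spread of the FLAG native libraries. The log2 fold change was 0.32 ± 0.10 (SE) with crosslinking (limma, adjusted p = 0.595) and 0.38 ± 0.16 in native conditions (adjusted p = 0.291). Over all libraries it was 0.35 ± 0.10 (unadjusted p = 0.0037, adjusted p = 0.112), with a 95% interval of 0.14 to 0.57, so that even its upper end stayed below the fold threshold of 0.58. A log2 fold change this far above 0 was reached by 19.3% of all genes. Exons of Notch1 overlap those of 2 genes on the opposite strand, 0610009E02Rik and Gm13568, and the strand setting of the counting is not given in the sources used here.

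Notch2, which shares ligands with Notch1, was at 6.54 and 6.61 in FLAG and at 6.93 and 6.60 in WT with crosslinking. Without crosslinking it was at 6.51, 6.66 and 6.75 in FLAG and at 6.92, 6.95 and 6.75 in WT. The FLAG values were mostly the lower ones but the groups met or overlapped with both protocols. Over all libraries the log2 fold change was -0.22 ± 0.10 (limma, unadjusted p = 0.0511, adjusted p = 0.239). Of the windows of 75 nt in the Notch2 transcript, 3.15% also occur in another gene, and Gm42820 overlaps its exons on the same strand.

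Notch3, best known from the mural cells of blood vessels and also expressed by NSCs, was at 5.05 and 4.92 in FLAG and at 5.13 and 5.10 in WT with crosslinking. In native conditions it was at 5.36, 5.04 and 5.19 in FLAG and at 5.22, 5.42 and 5.32 in WT. The FLAG libraries were below the WT libraries with crosslinking and overlapped with them in native conditions. The log2 fold change over all libraries was -0.12 ± 0.10 (limma, adjusted p = 0.445), the closest to 0 of the 8. Exons of Notch3 overlap those of Gm17276 on the opposite strand. Thus the 3 receptors did not share a direction, and the sign of Notch1 was opposite to that of Notch2 and Notch3 with both protocols.

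The ligand Dll1 was at 4.03 and 4.06 in FLAG and at 3.61 and 4.43 in WT with crosslinking. Native FLAG libraries had 4.12, 3.44 and 3.91, and native WT libraries 2.79, 4.07 and 2.78. Groups overlapped with both protocols, and with crosslinking the WT values lay on either side of those of FLAG. Its log2 fold change was 0.02 ± 0.30 with crosslinking and 0.61 ± 0.37 in native conditions (limma, adjusted p = 0.995 and 0.396). The difference between the protocols was 0.58 ± 0.57 and did not pass the test (interaction term, limma, adjusted p = 0.970). Without WT crosslinked replicate 1 the value with crosslinking became -0.38. Leaving out 1 library moved the native value between 0.39 (without WT native replicate 3) and 1.04 (without WT native replicate 2), and the difference between 0.18 (without WT crosslinked replicate 2) and 1.01 (without WT native replicate 2). Exons of Dll1 overlap those of A930024N18Rik on the opposite strand.

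Jag1, the other ligand, was at 2.83 and 3.21 in FLAG and at 3.40 and 2.82 in WT with crosslinking. In native conditions it was at 3.02, 3.30 and 3.26 in FLAG and at 3.68, 3.26 and 3.76 in WT. It ran opposite to Dll1 in native conditions, with the lowest value in a FLAG library and the highest in a WT library, and the groups overlapped. Over all libraries the log2 fold change was -0.26 ± 0.17 (limma, adjusted p = 0.359). With crosslinking it was -0.09 ± 0.26, and it turned to 0.10 without FLAG crosslinked replicate 1 and to 0.20 without WT crosslinked replicate 1.

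Rbpj, the DNA-binding protein through which all Notch receptors act, was at 5.85 and 5.74 in FLAG and at 6.01 and 5.91 in WT with crosslinking. Its native values were 5.43, 5.67 and 5.55 in FLAG and 5.88, 5.79 and 5.77 in WT. Each FLAG library was below each WT library of its protocol. Over all libraries its log2 fold change was -0.22 ± 0.09, with a 95% interval of -0.42 to -0.02 (limma, unadjusted p = 0.0314, adjusted p = 0.205), and 29.7% of all genes were as far below 0. With each library's trend on GC content and transcript length removed it became -0.15. The library with the highest Notch1 value, FLAG native replicate 1, had the lowest Rbpj value, and WT crosslinked replicate 1 had the lowest Notch1 and the highest Rbpj. The transcripts differ in base composition, with 57.1% GC in Notch1 and 43.7% in Rbpj, and the part of this in their values was not tested. Of the windows of 75 nt in the Rbpj transcript, 21.1% also occur in another gene, so its values are uncertain where reads could be split with such copies.

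Hes1, a repressor that is switched on by Notch in many progenitors, showed the largest log2 fold change of the 8. It was at 2.91 and 3.21 in FLAG and at 2.51 and 2.41 in WT with crosslinking. Without crosslinking it was at 3.40, 2.32 and 3.06 in FLAG and at 1.64, 2.47 and 0.36 in WT. The groups were apart with crosslinking, while in native conditions FLAG replicate 2 lay below WT replicate 2. This gave a log2 fold change of 0.60 ± 0.14 with crosslinking (limma, unadjusted p = 0.0139, adjusted p = 0.502) and 1.44 ± 0.53 in native conditions (adjusted p = 0.270). The difference between the protocols was 0.84 ± 0.75 and did not pass the test (interaction term, limma, adjusted p = 0.970). Without WT native replicate 3 the native value was 0.88 and the difference 0.27, and without WT native replicate 2 they were 1.93 and 1.33.

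Over all libraries, the Hes1 log2 fold change was 1.11 ± 0.37, with a 95% interval of 0.28 to 1.93 (limma, unadjusted p = 0.0132, adjusted p = 0.157). Only 2.48% of all genes had a log2 fold change as high, but 8.45% had a p-value as small. The size rested in part on WT native replicate 3, the lowest library, without which it was 0.75. Without FLAG native replicates 1 and 3, the libraries with many tied genes, it was 0.70. The lowest value came with a pseudocount of 8, at 0.41 over all libraries, 0.28 with crosslinking and 0.50 in native conditions, each under the fold threshold. With limma's array weights Hes1 was called in native conditions (1.75, adjusted p = 0.0368) and over all libraries (0.76, adjusted p = 0.0106), and the adjusted p over all alternatives ran from 0.0106 to 0.603. In the fit of all libraries, these weights rested mostly on FLAG crosslinked replicate 2 (10.2) and WT crosslinked replicate 1 (9.02). At 1.47 kb Hes1 has the shortest transcript of the 8, and with the trend on GC content and length removed its log2 fold change was 1.15.

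Hey1, a related repressor, was at 2.00 and 2.11 in FLAG and at 1.03 and 2.39 in WT with crosslinking. In native conditions it was at 2.31, 2.40 and 2.71 in FLAG and at 1.77, 2.77 and 0.79 in WT. The FLAG libraries were close together, the WT libraries lay on both sides of them, and the groups overlapped. The log2 fold change over all libraries was 0.55 ± 0.36 (limma, adjusted p = 0.364). It fell to 0.27 without WT native replicate 3 and reached 0.81 without WT native replicate 2, and in native conditions the same libraries moved it from 0.69 to 0.20 and to 1.19. With array weights it was called (0.95, adjusted p = 0.00494, against up to 0.784 over the alternatives), and without WT crosslinked replicate 1 the value with crosslinking went from 0.34 to -0.33.

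**Figure D3:**
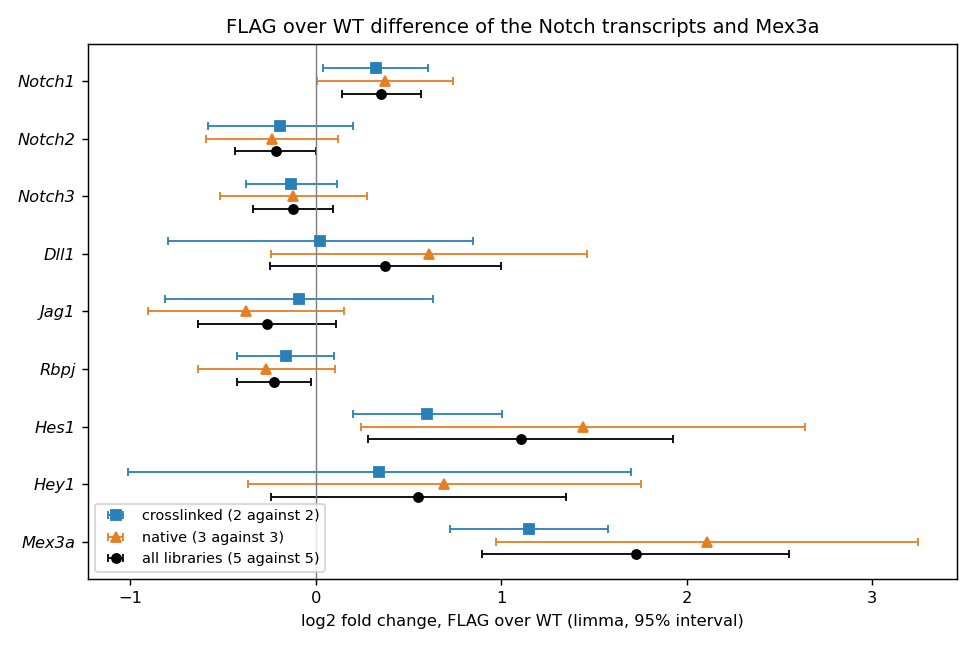
Log2 fold change of FLAG over WT (x axis) from limma for each transcript and for Mex3a, in the crosslinked libraries (blue squares), the native libraries (orange triangles) and all libraries, adjusted for protocol (black circles). Bars are 95% intervals. For Notch1 and Hes1 the intervals of all 3 comparisons are above 0, and those of Dll1, Jag1 and Hey1 cross 0.

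**Figure D4:**
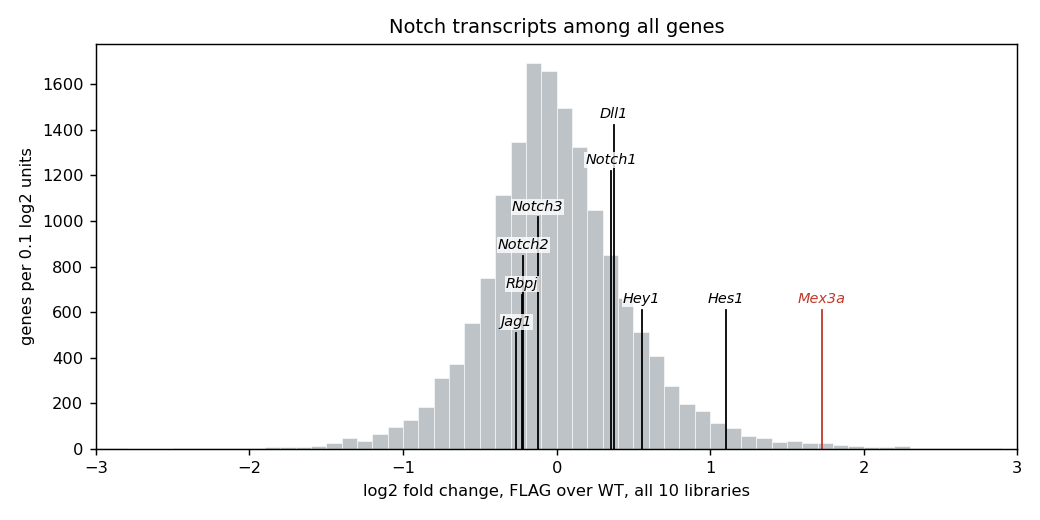
Histogram of the log2 fold change of FLAG over WT in all 10 libraries (x axis) over all genes of the matrix (y axis, genes per bin of 0.1), with lines for the Notch transcripts (black) and Mex3a (red). Line heights carry no value. Except for Hes1, at 1.11, the Notch transcripts lie between -0.26 and 0.55, within the bulk of all genes.

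For Dll1 and Hey1 both WT libraries numbered 2, one of each protocol, were above the other 3 WT libraries, by 1.19 and 1.38 on the log2 scale between the means. For Jag1 both were below, by -0.58, and the other 5, Hes1 included, showed neither. This separation of 3 of the 8 Notch transcripts was near the 33.8% of all genes, so it is no pattern of the Notch transcripts. It was described after the values were seen.

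The protocols were compared with each other, adjusting for genotype, to see how crosslinking moved the Notch transcripts. None of the 8 was called (limma, 4.11% of all genes), and none had an unadjusted p under 0.05 (20.4% of all genes). Dll1 and Hes1 had values of 0.52 ± 0.29 and 0.55 ± 0.38 (crosslinked over native, limma, adjusted p = 0.352 and 0.463). Leaving out 1 library moved Dll1 between 0.29 (without WT crosslinked replicate 2) and 0.68 (without WT native replicate 2), and Hes1 between 0.26 (without WT native replicate 3) and 0.74 (without WT native replicate 2). Those of Jag1, Notch1 and Notch3 were -0.32 ± 0.17, -0.21 ± 0.10 and -0.21 ± 0.10, with adjusted p between 0.255 and 0.333, and Jag1 was at -0.17 without WT crosslinked replicate 2. Rbpj was at 0.20 ± 0.09 (limma, unadjusted p = 0.0577, adjusted p = 0.264). Notch2 and Hey1 were at -0.09 ± 0.10 and -0.24 ± 0.37 (adjusted p = 0.685 and 0.761), and Hey1 moved between -0.54 and -0.02 when 1 library was left out. With array weights Dll1 (0.62) and Hes1 (0.99) were called. No Notch transcript was called for a difference of FLAG over WT between the protocols, as was 0% of all genes, and none of the 8 had an unadjusted limma p under 0.05 (0.428% of all genes).

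A wider list of 79 Notch pathway genes, which includes the genes above, had 66 genes in the matrix. Over all libraries none was called higher in FLAG and 1 was called lower (0.264% and 0.233% of all genes), with 10 higher and 4 lower at an unadjusted p under 0.05 (11.2% and 9.85% of all genes). The log2 fold change was above 0 for 42 of the 66, with a median of 0.13 against -0.03 over all genes. Among the proteases that cut Notch, 8 of 10 were above 0, with a median of 0.18. Among the 15 corepressors 6 were above 0, with a median of -0.03, and the 3 measured genes of the Hes and Hey class were all above 0. The list was chosen with results of these libraries known.

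**Figure D5:**
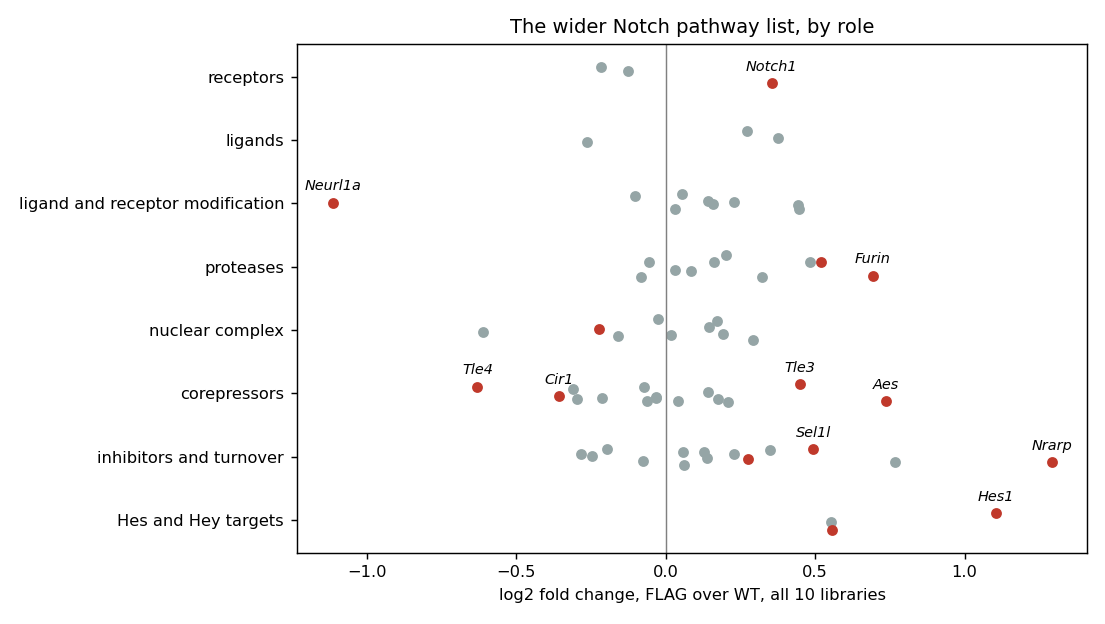
Log2 fold change of FLAG over WT in all 10 libraries (x axis) for the 66 genes of the wider Notch list, by role (y axis, with points shifted up or down at random for legibility). Red points have an unadjusted limma p under 0.05, and 10 of these are above 0 and 4 below. Neurl1a, at -1.11, is the single gene of the list called.

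The gene called was Neurl1a, a ubiquitin ligase of the Neuralized family that acts on Notch ligands. Its level was 3.42 and 3.90 in FLAG and 4.50 and 4.63 in WT with crosslinking, and 2.51, 3.67 and 2.93 in FLAG and 4.17, 4.29 and 4.40 in WT in native conditions. Each FLAG library was below each WT library. The log2 fold change was -1.11 ± 0.21 (limma, adjusted p = 0.0499), at the edge of the threshold. The call was kept under 8 of 24 alternatives, with adjusted p from 0.00071 to 0.16. It was lost when any 1 library was left out except FLAG native replicate 2 or WT crosslinked replicate 2, while the log2 fold change stayed between -1.27 and -0.95. It was also lost with the replicate number as a block (adjusted p = 0.0649) and with cultures of the same number and genotype as a random block (adjusted p = 0.0916).

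Of the remaining genes, those with the smallest p-values on each side were Tle3, Furin and Sel1l above 0 and Tle4 and Cir1 below. Of the Groucho genes, Tle3 was at 0.45 ± 0.11 (limma, adjusted p = 0.0982) and Tle4 at -0.63 ± 0.12 (adjusted p = 0.0571), while Tle1 and Tle2 were at -0.03 ± 0.20 and -0.07 ± 0.24. With both protocols the FLAG libraries were all above WT for Tle3 and Sel1l, and all below for Tle4 and Cir1. Over the wider list, 4 of the 66 genes were all above and 4 all below, against 4.84% and 4.47% of all genes. Aes, the short Groucho protein also named Tle5, was at 0.74 ± 0.25 (adjusted p = 0.157), and none of the Groucho genes named here was called. With array weights Tle3 was called (0.58, adjusted p = 0.000141). Tle4 was called with array weights, with robust moderation, and when FLAG native replicate 2 or WT crosslinked replicate 2 was left out, where adjusted p was as low as 0.000153 and over all alternatives as high as 0.212. Furin, the protease that cleaves the Notch precursor, was at 0.69 ± 0.22 (adjusted p = 0.138). Its value was 1.10 ± 0.26 in native conditions and 0.08 ± 0.20 with crosslinking, a difference of 1.02 ± 0.34 with an unadjusted p of 0.0144 (interaction term, limma, adjusted p = 0.970). The value with crosslinking turned to -0.15 without WT crosslinked replicate 1 and rose to 0.32 without WT crosslinked replicate 2. Furin is on the list of bound genes that the study chose on these libraries, so its direction is no independent evidence. Sel1l, of the degradation machinery of the endoplasmic reticulum, was at 0.49 ± 0.16 (adjusted p = 0.151). Cir1, a corepressor that binds RBPJ, was at -0.36 ± 0.16 (adjusted p = 0.230), and leaving out 1 library moved it between -0.41 and -0.23.

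Between the protocols, 2 of the 66 genes of the wider list were called, both lower with crosslinking, a share no higher than the 4.11% of all genes. Nrarp, an inhibitor of Notch signalling that Notch itself induces, was between -2.68 and -0.91 in the crosslinked libraries and between -0.90 and 2.20 in the native libraries, with no overlap (-2.09 ± 0.45, limma, adjusted p = 0.0271). Its level was very low and the call was kept under 12 of 22 alternatives, with a pseudocount of 8 reducing the value to -0.21. Aes was between 2.77 and 3.65 in the crosslinked and between 3.75 and 5.63 in the native libraries (-1.26 ± 0.25, adjusted p = 0.0198). Leaving out FLAG crosslinked replicate 1 or 2, WT crosslinked replicate 1 or WT native replicate 1 ended the call of Nrarp and of Aes, and leaving out WT crosslinked replicate 2 that of Nrarp, with adjusted p of at most 0.11. With the replicate number as a block both calls were lost (Nrarp -1.98, adjusted p = 0.127, and Aes -1.32, adjusted p = 0.0673), while with GC and length trends also removed Aes was called (adjusted p = 0.04).

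Genes with the pattern most like that of Notch1 and Hes1 were found by Pearson correlation over the 10 libraries, after the mean of its protocol was subtracted from each value. For Notch1 these were Nmral1 (r = 0.992), Tub (0.981) and Clip3 (0.975), and 140 genes were above 0.9. For Hes1 they were Rhob (0.988), Tmed2 (0.984) and Actg1 (0.983), and 339 genes were above 0.9. All of these share the same libraries and their normalization, and the values describe likeness only.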

How the data were processed

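RIP-seq was measured in 10 libraries. The authors trimmed the reads, aligned them with HISAT2 to GRCm38, counted GENCODE genes with featureCounts, and deposited 1 matrix of log2 values. The methods name DESeq2 for normalization and the tools in the labels include limma, with no role given, so the step that gave these values is not settled. The matrix does not hold the depth of each library, and read counts could not be recovered from its values. From the matrix, FLAG was compared with WT with lmFit and eBayes (trend) in limma 3.58.1 (R 4.3.3), with no pseudocount or further filter, and the scripts were tested on simulated data. Sites and lengths came from GENCODE M21, in which 15864 of 15899 genes were found (14849 with the same start and end), and the genome was RefSeq's GRCm38.p6. Genes named beyond the Notch transcripts were those called and up to 3 with the smallest p on each side. The Notch genes and all lists were chosen with earlier results of these data known. Alternatives were other pseudocounts, filters, normalizations, moderation, weights, blocks, GC and length trends, and left-out libraries. The result of 1 marker list is not reported here.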

Additional observations from a re-analysis of the deposited data

How the results depend on the processing

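Counts over all genes depended strongly on the processing. Of 678 values of the Notch transcripts under alternatives, 668 kept their direction and their side of the threshold, 5 passed the threshold (all with array weights) and 5 turned. Most of the 668 were values that stayed uncalled where few or no genes were called at all, which is no sign of stability, and over all libraries Hes1 ranged from 0.41 to 1.33, Hey1 from 0.15 to 0.95 and Dll1 from 0.11 to 0.58. Of those that turned, 4 came from leaving out 1 crosslinked library (Dll1 from -0.38 to 0.43, Hey1 from -0.33 to 1.02 and Jag1 from -0.38 to 0.20, where Jag1 turned a second time, to 0.10), and the other was Notch2 between the protocols with array weights, at 0.00. The number of the 8 called stayed at 0 in each comparison except with array weights, which called 1 in native conditions, 2 over all libraries and 2 between the protocols. Leaving out any 1 library called none of them in any comparison, also where FLAG native replicate 2 was left out and 3160 genes were called in native conditions (17 with it), 702 over all libraries (79 with it) and 1049 between the protocols (653 with it).

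Called genes in native conditions numbered 7 with a minimum mean of 10, 0 without a trend, 27 with robust moderation, 3577 with array weights, 9 with GC and length trends removed, 4 with 1 fit of 4 groups and 9 without FLAG native replicates 1 and 3. Over all libraries they numbered 41 with a pseudocount of 8, 43 with the minimum mean, 25 without a trend, 2069 with array weights, 17 with 4 groups, 18 without FLAG native replicates 1 and 3, and 15 with a random block for cultures. Between the protocols they numbered 197 with a pseudocount of 8, 209 with the minimum mean and 2028 with array weights. With 1 library left out at a time, calls ranged from 0 to 4 with crosslinking, from 0 to 3160 in native conditions, from 13 to 702 over all libraries, from 236 to 1049 between the protocols and from 0 to 1 for the difference between the protocols. Apart from FLAG native replicate 2, WT crosslinked replicate 2 raised the count over all libraries to 401 and WT native replicate 2 that in native conditions to 55 when left out. The minimum mean left 5 of the 8 Notch transcripts to test. The cause of these changes was not tested. The matrix holds no read depth per library, so its part in the spread of the low transcripts could not be computed.

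Whether the replicate numbers pair FLAG and WT libraries could not be settled from the values. The deviations of same-numbered libraries from their group means correlated at -0.274 with crosslinking and at -0.149, -0.43 and -0.167 in native conditions. Deviations within a group are tied to each other, and in a group of 2 libraries they are mirror images. With crosslinking, exchanging the numbers would therefore only turn the sign, here and in the correlations between the protocols that follow. Between the protocols, same-numbered libraries correlated at 0.178 and 0.154 in FLAG and at 0.30 and 0.388 in WT, and limma's consensus correlation within such cultures was 0.327. The block ended the calls of Neurl1a, Nrarp and Aes given above. With the replicate block, 0, 14, 34 and 305 genes were called with crosslinking, in native conditions, over all libraries and between the protocols, and with the block and GC and length trends removed 0, 1, 44 and 258. Hes1 was at 1.11 and Notch1 at 0.35 over all libraries with the block (adjusted p = 0.211 and 0.196), and none of the 8 was called. Exchanging the numbers of the WT crosslinked libraries, an alternative chosen after seeing the data like the removal of FLAG native replicates 1 and 3, also called 0 genes.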
